A study of Mus musculus with 44 samples.

Results

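The junctions described here join sequence at or beside a fixed chromosome break to DNA lying within 1 kb of that same break. They come from high-throughput genome-wide translocation sequencing (HTGTS), in which a primer beside 1 chosen double-strand break, the bait, reads out of the broken end into whatever sequence it was joined to, the prey. All rows with prey on chromosome 2 at most 1 kb from position 13271321 (mm10) were taken, on either side and on either strand. This gave 11778 of the 148726 junctions in 32 libraries, and 136236 junctions with prey on another chromosome or more than 10 kb away served for comparison. In 2736 of the 11778 the bait part ran on past the uncut site, as set out below, so these did not start at the broken end. The break lies in the 5′ untranslated part of exon 1 of Rsu1 (ENSMUSG00000026727, minus strand, chr2:13076821-13271415), which encodes Ras suppressor protein 1, a partner of PINCH in the integrin-linked complex at focal adhesions.

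All libraries were made from mouse embryonic fibroblasts (MEFs) that the labels give as C57BL/6 and wild type. In 26 libraries the cells carried an inducible AsiSI restriction enzyme fused to an estrogen receptor (AsiSI-MEFs), received doxycycline at 3 µg per ml for 24 h and 4-hydroxytamoxifen (4OHT) at 1 µg per ml for the last 6 h, so that the bait was cut together with other AsiSI motifs across the genome. In the other 6 libraries Cas9 and a guide RNA cut the bait motif in cells harvested 48 h after transfection, and their labels also list 4OHT. The paper gives those cells as wild-type MEFs, not AsiSI-MEFs. Nuclease, cell line, induction and time thus differ together between these groups, and their parts cannot be told apart. Below, AsiSI and Cas9 name the groups. AsiSI-MEFs were cotreated with dimethylsulfoxide (DMSO, n = 6) or CK-666 at 100 µM (n = 6), an inhibitor of the actin nucleator ARP2/3. Further AsiSI-MEFs received NU7441 at 10 µM (n = 3), an inhibitor of the end-joining kinase DNA-PKcs, wiskostatin at 3 µM by the methods and 3 mM by a legend (n = 2), an inhibitor of the ARP2/3 activator WASP, or a plasmid for actin R62D-NLS, a mutant that does not polymerize and is directed to the nucleus (n = 2). NU7441 and wiskostatin had DMSO controls of their own and the plasmid had an empty vector control, with as many libraries as the treated group. Below, the DMSO-treated AsiSI libraries are the 6 of the CK-666 experiment. Cas9-cut cells received DMSO (n = 3) or CK-666 (n = 3). The labels number replicates but do not say that they are separate cultures, so p-values measure the spread between libraries, part of which may be technical.

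Most breaks of this kind are closed by non-homologous end joining, in which the Ku proteins and DNA-PKcs hold the ends until ligase 4 seals them with little loss. Ends that are trimmed further can be joined through a few bases that both sides share, a microhomology, as DNA polymerase theta does. Sealing a break to its own other side with bases missing leaves a deletion, in which bait and prey read along the same strand. A joint of the bait to a turned-over piece leaves bait and prey on opposite strands. HTGTS cannot count perfect resealing, since that restores the uncut sequence.

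The reference around the break is shown so that the 2 cuts can be placed, with the AsiSI motif in capitals in the first line and the PAM in capitals in the second (mm10, plus strand, chr2:13271307-13271336 and chr2:13271307-13271329).
Bait reference: ccctgtcccaGCGATCGCgcaggcgcacac
Guide target: ccctgtcccagcgatcgcgcAGG
The primer reads from left to right. AsiSI leaves position 13271321 as the last bait base, with a 3′ overhang of 2 bases, and the far side then starts at position 13271320. By the guide, Cas9 leaves position 13271323 as the last bait base and position 13271324 as the first far-side base. Rsu1 runs from right to left, so its coding exons lie on the primer's side. Some annotated transcripts start on the far side, at positions 13271333, 13271394 and 13271415, and others start on the primer's side, at position 13271311 and lower. The antisense gene Gm13270 starts further out on the far side, at position 13271601.

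The libraries held 362 to 18428 junctions, of which 25 to 1030 were near the bait. Libraries came from 6 sequencing runs, and run moved with 2 properties of the tables. The largest loss from the bait end was 18 to 21 bp in runs 1 and 2, which held all AsiSI libraries of the CK-666 experiment, and 15 bp in every library of the other runs. The bait part of a near-bait read was at least 25 bp long. Median read length was 106 to 175 bp. Identical near-bait junctions within a library made up 0 to 20.6% of its near-bait rows. The outermost 50 bp inside the limit held 45 junctions and the next 50 bp outside it held 37, so the limit of 1 kb crossed a thin tail, and 57.2% of the near-bait junctions lay within 100 bp of the break.

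Deletions were the most frequent class. They made up 7173 of the 11778 near-bait junctions, with the prey on the far side and on the bait's own strand. A further 661 had prey on the far side in the opposite orientation, 944 had prey on the primer's side in the opposite orientation and 264 had prey on the primer's side in the same orientation. In the remaining 2736 the bait part of the read ran through the whole intact AsiSI motif and continued past it before the read switched, and 2529 of these switched to the opposite strand. Their bait part thus ended beyond the cut. They are called motif-keeping below, were recognised after the values were seen, and are described without a test.

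**Figure D1:**
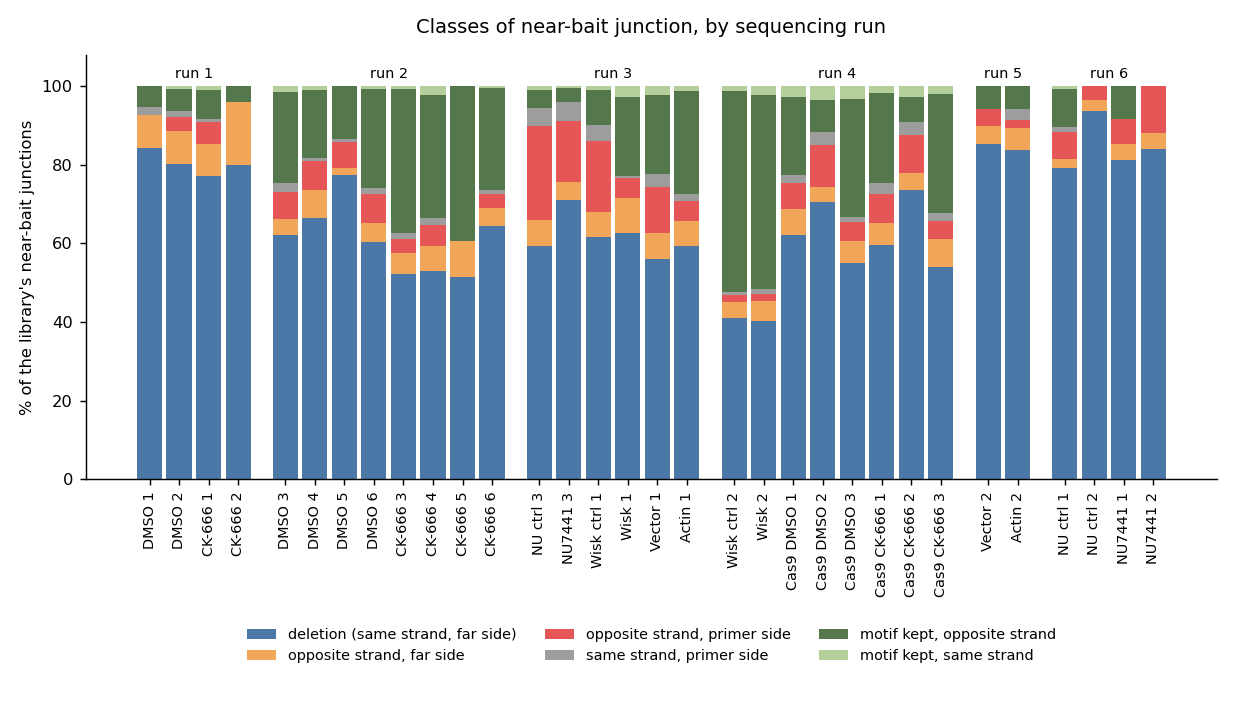
Each bar is 1 library, grouped by sequencing run, and shows the percentage of its near-bait junctions in each of 6 classes. Deletions (blue) span 40.3 to 93.7%, and motif-keeping junctions (green) range from 0 to 52.5%, with both wiskostatin-experiment libraries of run 4 above the others.

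In the 6 DMSO-treated AsiSI libraries deletions made up 60.5% to 84.4% of the near-bait junctions, with a median of 72% and a mean of 71.9% ± 10.1 (SD). In the 3 DMSO-treated Cas9 libraries they made up 62.2%, 70.6% and 55%. Motif-keeping junctions accounted for 5.21% to 25.95% (median 15.7%) of the AsiSI libraries and for 22.6%, 11.6% and 33.2% of the Cas9 libraries. Every class was thus found in the libraries of both groups, which overlapped in each of these shares.

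Motif-keeping junctions moved with the run and the library rather than appearing at 1 level. Their share was 4 to 8.26% in the 4 libraries of run 1, 13.3 to 39.4% in the 8 of run 2, 4.12 to 27.3% in the 6 of run 3 and 9.05 to 52.5% in the 8 of run 4. It was 5.67% and 5.68% in run 5 and 0 to 10.3% in the 4 libraries of run 6. In run 4 the AsiSI libraries with wiskostatin and its control had 51.5% and 52.5%, above all 6 Cas9 libraries sequenced with them. Median read length was 106 to 113 bp in run 1 and 132 to 175 bp in run 4, and its part in this difference was not tested. In the DMSO-treated AsiSI libraries the bait of the opposite-strand ones ran a median of 34 to 84 bases past the motif, and the prey lay a median of 26 to 61 bp further out.

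The share of opposite-strand junctions therefore depended on whether motif-keeping reads were counted. With them, it was 26.01% ± 9.69 (SD, n = 6) in the DMSO-treated AsiSI libraries and 31.996% ± 8.97 (SD, n = 3) in the Cas9 libraries. Without them, it was 13.3% ± 3.56 and 16.3% ± 0.628. Prey more than 10 kb away lay on the opposite strand in 49.8% ± 0.523 and 50.6% ± 0.555 of junctions in the same libraries. Near-bait junctions were on the opposite strand less often than far ones in 6 of 6 AsiSI libraries, a difference of -23.7 percentage points ± 9.69 (SD), with an exact sign-flip p of 0.0312, the smallest that 6 libraries allow, and 0.0625 after adjustment over 4 measures. Leaving out motif-keeping junctions near the bait, with far junctions unfiltered, moved the difference to -36.5 percentage points (exact p = 0.0312, adjusted 0.0417). This alternative was added after the data were seen. In the Cas9 libraries the share was lower near the bait in 3 of 3, a difference of -18.6 percentage points ± 9.46, where 3 libraries cannot give an exact p below 0.25.

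Some libraries carried more opposite-strand junctions than the others. The NU7441 control library 3 and the wiskostatin control library 1, both of run 3 and the deepest of all with 18428 and 12579 junctions, had 32.3% and 27.1% opposite-strand junctions among those that had lost the motif. The actin vector control library 1 of the same run followed with 23.5%. All other libraries lay between 6.34 and 20.8%. Their treated partners of run 3 had 20.8%, 18.2% and 15.7% in that order.

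The share of all junctions that lay near the bait was steady among the 6 DMSO-treated AsiSI libraries of the CK-666 experiment and higher with Cas9. It was 7.72%, 6.78%, 6.18%, 6.92%, 6.42% and 6.92% in AsiSI replicates 1 to 6. It was 16.3%, 19.5% and 29.5% in Cas9 replicates 1 to 3. The lowest Cas9 library stood above the highest of these 6 AsiSI libraries, and the Wilson 95% intervals, which cover counting error only, were 15.1 to 17.6% and 6.36 to 9.33% for those 2. The means were 21.8% ± 6.89 (SD, n = 3) and 6.82% ± 0.527 (SD, n = 6), a difference of 14.9 percentage points with an exact permutation p of 0.0119, the smallest this design gives, and 0.0238 after adjustment over 6 measures. The DMSO controls of the NU7441 and wiskostatin experiments, also AsiSI, ranged from 2.70% to 8.98%. With motif-keeping junctions left out, the shares were 4.73 to 7.34% in the 6 AsiSI libraries and 13.1%, 17.6% and 21.8% with Cas9.

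**Figure D2:**
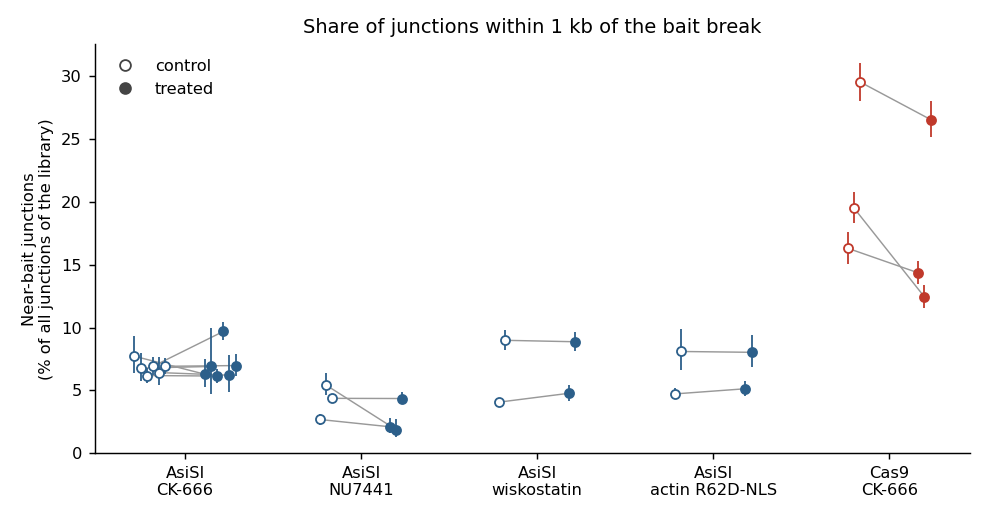
Each point is 1 library's percentage of junctions within 1 kb of the bait break with its Wilson 95% interval, open for controls and filled for treated cells, and lines join libraries of the same replicate number. The Cas9 libraries (red) lie between 12.4 and 29.5%, above all AsiSI libraries (blue), which lie between 1.88 and 9.69%.

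The difference in near-bait share between Cas9 and AsiSI depended on which junctions made up the total. In AsiSI libraries under DMSO, 72.4% ± 6.45 (SD, n = 6) of far junctions lay within 500 bp of another AsiSI motif, against 2.08% ± 2.13 (n = 3) with Cas9. When far prey beside AsiSI motifs was left out of the total, the near-bait share became 21.5% ± 4.69 with AsiSI and 22.2% ± 7.34 with Cas9, a difference of 0.634 percentage points (exact permutation p = 0.833). Counted over chromosome 2 alone it was 22.7% ± 0.853 against 57.8% ± 10.2, a difference of 35.2 percentage points (exact p = 0.0119, adjusted 0.0238). That total kept the prey beside the other AsiSI motifs of chromosome 2. All Cas9 libraries were sequenced in run 4. The AsiSI control in that run, from the wiskostatin experiment, had 8.98% near-bait junctions, 12.8 percentage points below the Cas9 mean, and with 1 library on that side no exact p below 0.25 was possible. Without any 1 of the 3 Cas9 libraries the smallest exact p was 0.0357, and the adjusted p for this share, prey distance and inserted bases was then 0.0536 to 0.0714.

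In the DMSO-treated libraries, deletions with Cas9 reached further out on the far side than those with AsiSI. Every listed read has to hold the primer, and bait loss was at most 21 bp in any library. Only the far side could thus vary up to 1 kb. These measures of deletions were chosen after the values were seen and are given without a test. Missing bases are counted in the reference and inserted bases are not subtracted. The median number of bases missing was 21 to 26 bp in the 6 DMSO-treated AsiSI libraries, and 31, 39 and 32 bp in the Cas9 libraries. The groups did not overlap in this median, but the NU7441 control library 3, also AsiSI and outside this comparison, had 32 bp. The 75th percentile was 32.9 bp ± 4.58 (SD, n = 6) against 136 bp ± 35.6 (SD, n = 3). Prey more than 100 bp past the break made up 3.23 to 14.6% of AsiSI deletions (median 8.36%), against 29.7%, 34.2% and 25.04% with Cas9. The NU7441 control library 3 and the wiskostatin control library 1 of run 3, both AsiSI, reached 32.6% and 28.9% on this measure. Single AsiSI libraries outside this comparison thus lay within the Cas9 range.

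**Figure D3:**
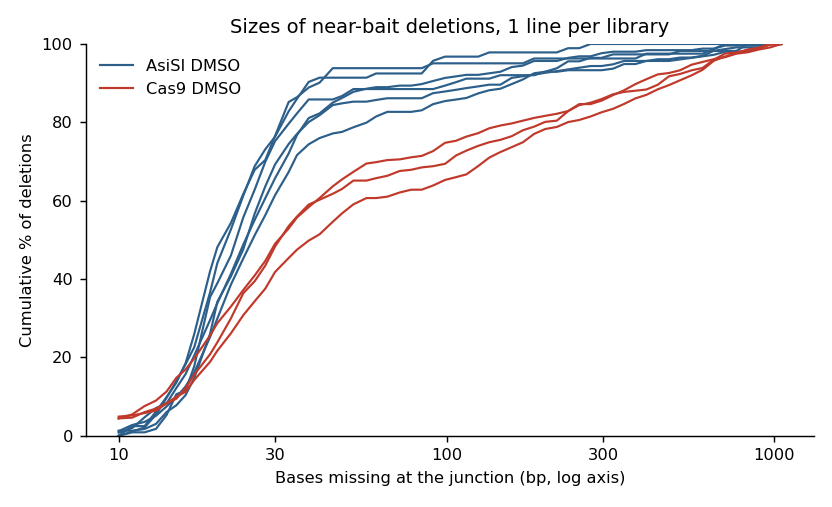
Cumulative percentage of near-bait deletions by the number of bases missing (log axis), with 1 line per DMSO-treated library, 6 for AsiSI and 3 for Cas9. The lines reach their medians at 31 to 39 bp with Cas9 and at 21 to 26 bp with AsiSI.

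Few small deletions were listed. No deletion without an insertion lacked fewer than 11 bp, and 170 of 7173 lacked 10 bp or less, of which 167 carried an insertion of 15 nt or more. The smallest products of repair without an insertion are therefore not measured by these rows. The 170 short ones are included in the sizes above. Per far-side distance, 35.7% ± 8.63 of AsiSI deletions ended at most 10 bp past the break and 47.4% ± 3.62 ended 11 to 30 bp past it. With Cas9 these were 18.2% ± 1.90 and 35.8% ± 3.26, and 15.1% ± 1.97 ended more than 300 bp past it, against 3.51% ± 2.41 with AsiSI. The shares up to 10 bp count far ends at position 13271320, just before the break, which 57 AsiSI and 0 Cas9 deletions under DMSO had.

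The median prey distance, which counts all near-bait junctions, was tested between the nucleases. It was 11.5 to 36 bp in the 6 DMSO-treated AsiSI libraries (median 19.5 bp), and 88.5, 83 and 97 bp in the Cas9 libraries. The groups did not overlap, and the difference of 67.8 bp had an exact permutation p of 0.0119 (adjusted 0.0238). Without motif-keeping junctions it narrowed to 26 bp (15.7 bp ± 3.89 against 41.7 bp ± 14.2, exact p = 0.0119, adjusted 0.0143). Against all 13 AsiSI control libraries it was 42.2 bp (exact p = 0.152, adjusted 0.228). In run 4 alone the sign turned, with the AsiSI control at 125 bp, above the Cas9 libraries by 35.5 bp on average. Motif-keeping junctions made up 52.5% of that control's near-bait junctions. Without them its median was 19 bp, against 35, 58 and 32 bp in the Cas9 libraries.

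**Figure D4:**
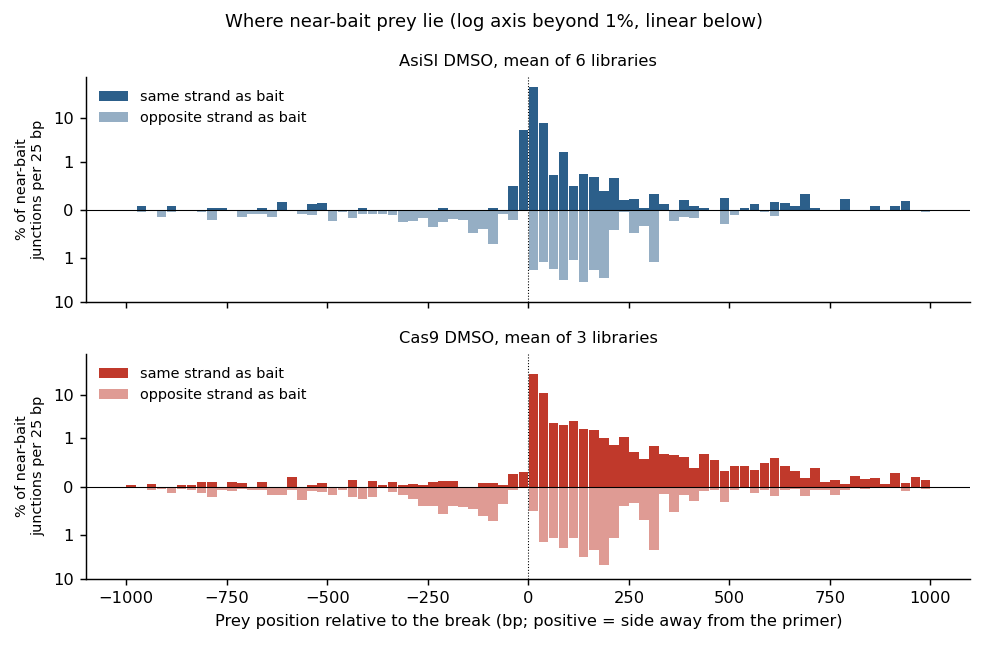
Mean percentage of near-bait junctions per 25 bp of prey position relative to the break, with same-strand prey upward and opposite-strand prey downward (linear to 1%, logarithmic beyond), for 6 AsiSI and 3 Cas9 DMSO libraries. Same-strand prey peaks just past the break with both nucleases and forms a longer tail on the far side with Cas9.

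The long deletions reached past the Rsu1 starts annotated on the far side. With AsiSI, 8.81% ± 4.28 (SD, n = 6) of deletions passed the outermost, position 13271415, and 52.2% ± 10.9 passed the nearest, position 13271333. With Cas9 these were 30.6% ± 4.74 and 76.5% ± 1.91 (n = 3). No junction lost more than 21 bp from the bait end, so the starts at position 13271296 and lower were kept in all listed deletions. A deletion that took the primer site could not be listed, so this retention was set by the assay. Exon 2 and intron 1, on the gene side, held few prey. Among motif-losing junctions, opposite-strand prey anywhere on that side made up 0 to 7.49% of near-bait junctions in the 6 DMSO-treated AsiSI libraries. With Cas9 it made up 6.65%, 10.8% and 4.85%. It reached 24.1% and 18.0% in the NU7441 control library 3 and the wiskostatin control library 1, both AsiSI. Exon 2, which holds the Rsu1 start codon, received 0.680% ± 0.578 of near-bait prey with AsiSI and 1.05% ± 0.151 with Cas9, and intron 1 received 1.84% ± 1.39 and 3.34% ± 1.14. Exon 1 of the antisense gene Gm13270 held 2.53% ± 1.08 and 6.54% ± 2.40.

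On the bait side, the median loss was larger with AsiSI, by a difference that did not pass the test as designed. Loss was counted from position 13271321 for both nucleases, although Cas9 leaves 2 more bait bases than AsiSI by the guide. The median bait loss was 12, 10, 3, 7, 11.5 and 4 bp in AsiSI DMSO replicates 1 to 6 and 2, 4 and 1 bp with Cas9. The ranges overlapped, and the difference of -5.58 bp had an exact permutation p of 0.0595 (adjusted 0.0714). Counted from each nuclease's own cut it was -3.58 bp (exact p = 0.226, adjusted 0.271). Some features of the tables also touched this value. The AsiSI libraries of this comparison came from the runs that held losses of up to 21 bp, and limiting all libraries to 15 bp gave -3.17 bp (exact p = 0.298). Motif-keeping junctions count as negative losses, and without them the medians were 10.4 bp ± 1.86 and 5.17 bp ± 0.289, a difference of -5.25 bp (exact p = 0.0119, adjusted 0.0143), or -3.25 bp from the own cuts (exact p = 0.0357, adjusted 0.0429). With the limit as well the difference was -2.83 bp (exact p = 0.0357, adjusted 0.0429), and from the own cuts it was -0.833 bp (exact p = 0.607). The call thus depended on the zero point. In run 4 alone the sign turned again, to 19.3 bp, since the AsiSI control there had a median of -17 bp. Without motif-keeping junctions that control had a median of 7 bp, against 5, 5 and 5.5 bp in the Cas9 libraries.

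Near the bait the median loss from the bait end was above that of distant junctions of the same library, with an adjusted p just above the threshold. The far junctions had a median bait loss of -0.167 bp ± 1.47 (SD) in the 6 DMSO-treated AsiSI libraries, against 7.92 bp ± 3.85 near the bait. Loss was larger near the bait in 6 of 6, by 8.08 bp ± 4.88 (exact sign-flip p = 0.0312, adjusted 0.0625). The adjusted p was 0.0417 with motif-keeping junctions left out near the bait only, while far junctions were not filtered in that way. With Cas9 it was larger in 3 of 3, by 4.33 bp ± 1.53. The deletions listed without an insertion lacked at least 11 bp, a limit that distant prey does not have, and its part in this difference was not tested. Bases that bait and prey share count as bait and lower the loss. Under DMSO an overlap of 8 nt was found in 13.5% ± 4.82 of far AsiSI junctions and 0.138% ± 0.214 of near-bait AsiSI deletions. The part of such overlaps was not tested either.

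Among the listed deletions, ends that had kept all their bases were uncommon. None without an insertion lacked 10 bp or less, so joints with both ends nearly intact are missing from these shares. In 6.62% ± 2.85 (SD, n = 6) of AsiSI deletions the far side still began at position 13271320, that is, with all its bases, and in 3.02% ± 1.58 the bait ended at position 13271321. In Cas9 deletions under DMSO the far side began at position 13271324 in 3.34% ± 0.930 and the bait ended at position 13271323 in 5.74% ± 0.750 (n = 3). Position 13271320 was seen in 0 of the 1456 Cas9 deletions under DMSO and in 1 Cas9 deletion under CK-666. It lies on the bait side of the Cas9 cut by the guide, so that cut does not leave such an end. Counted from each nuclease's own cut, more was lost from the bait side than from the far side in 40.7% ± 10.6 of AsiSI deletions and 20.7% ± 1.56 of Cas9 deletions. Bait loss was at most 21 bp from position 13271321 in any library while far-side loss could reach 1 kb, so these shares compare unequal ranges.

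At the joint itself, bait and prey shared at least 1 base in most junctions. The overlap share was 67.7%, 63.1%, 64.95%, 65.7%, 65% and 66.2% in AsiSI DMSO replicates 1 to 6 and 61.2%, 58.4% and 63.4% with Cas9. The difference was -4.44 percentage points (exact permutation p = 0.0238, adjusted 0.0357), and the groups overlapped by 1 pair of libraries. It was -7.08 percentage points without motif-keeping junctions (adjusted 0.0143), and -5.52 against all 13 AsiSI controls (exact p = 0.0286, adjusted 0.0571). Among AsiSI deletions the overlap was a single base in 36.4% ± 4.58 and 2 to 3 bases in 17.3% ± 1.07. With Cas9 these were 21.6% ± 0.561 and 23.5% ± 2.39. Direct joints without overlap or insertion made up 26.2% ± 2.99 and 19.8% ± 0.952.

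Inserted bases were more frequent in the Cas9 libraries, which also differ in cell line and induction. They were present in 11.5 to 16.7% of near-bait junctions of the 6 AsiSI DMSO libraries (median 14.7%), and in 23.6%, 26.3% and 24.1% with Cas9. The groups did not overlap, and the difference of 10.1 percentage points had an exact permutation p of 0.0119 (adjusted 0.0238). In the run that held Cas9 the AsiSI control had 13.9%, below the Cas9 mean by 10.8 percentage points. Dropping junctions that lacked fewer than 30 bp in all left 5.55 percentage points (exact p = 0.0476, adjusted 0.0714). Much of the difference lay in long insertions: those of 15 to 30 nt occurred in 1.07% ± 0.989 of AsiSI deletions and 8.06% ± 1.04 of Cas9 deletions.

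Long overlaps were found mainly in distant AsiSI junctions and in motif-keeping reads. Overlaps of 6 nt or more were found in 34.5% ± 10.7 (SD, n = 6) of far junctions in AsiSI DMSO libraries, of which 85.3% ± 6.83 lay within 500 bp of another AsiSI motif. Of all far junctions there, whatever their overlap, 72.4% ± 6.45 lay that close. In near-bait junctions that had lost the motif such overlaps were found in 2.95% ± 1.11. With Cas9 the shares were 9.17% ± 8.05 far and 2.19% ± 0.369 near. Opposite-strand motif-keeping junctions overlapped in 88.2% ± 8.16 of AsiSI and 90.1% ± 2.87 of Cas9 cases, and in both the motif-keeping junctions with an overlap shared a median of 4 nt.

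**Figure D5:**
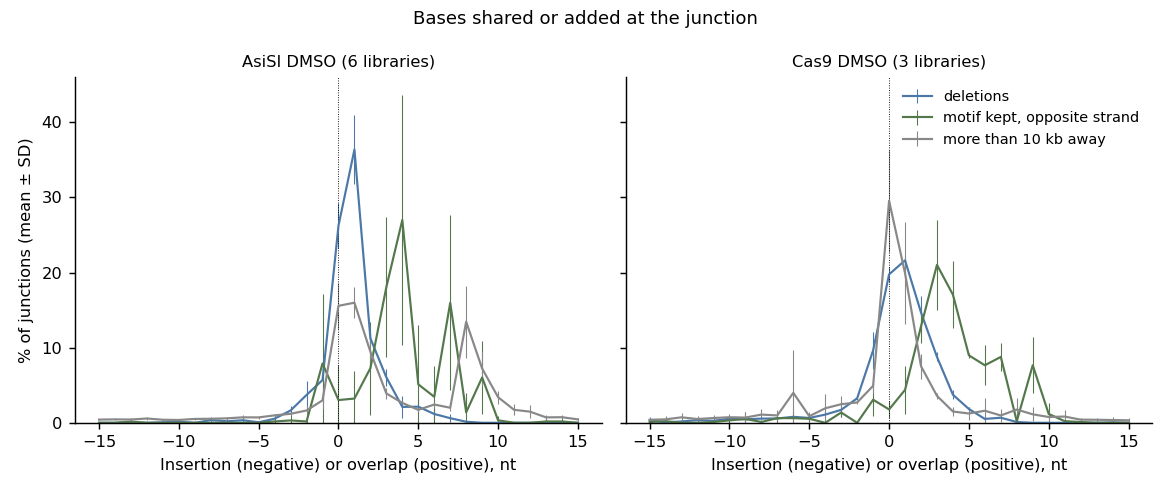
Percentage of junctions (mean ± SD over libraries) by inserted (negative) or shared (positive) bases, for near-bait deletions, opposite-strand motif-keeping junctions and junctions more than 10 kb away, in 6 AsiSI (left) and 3 Cas9 (right) DMSO libraries. Deletions peak at 1 shared base, motif-keeping junctions at 3 to 4, and far AsiSI junctions show a further peak at 8.

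Single joints recurred between libraries. In the 6 AsiSI DMSO libraries there were 741 combinations of bait end, prey position and strand, 486 were seen 1 time and 23 were seen in all 6 libraries. In the 3 Cas9 DMSO libraries 124 of 1419 combinations were seen in all 3. The 3 leading combinations of each set are printed as the reads show them across the joint, bait first, at the overlap most frequent in the libraries they were chosen in, with the bases that bait and prey share in capitals.
AsiSI 1, bait end 13271307 to prey 13271332, plus strand: cgcagcaggaacaCACacaaaatccggcc
AsiSI 2, bait end 13271306 to prey 13271320, plus strand: cgcagcaggaacacAtcgcgcaggcgcac
AsiSI 3, bait end 13271304 to prey 13271320, plus strand: cccgcagcaggaacAtcgcgcaggcgcac
Cas9 1, bait end 13271412 to prey 13271455, minus strand: tcccagctgtggcTCCgcctcggggtcca
Cas9 2, bait end 13271396 to prey 13271504, minus strand: aattaggagaactGTTcctcagcgtaggg
Cas9 3, bait end 13271406 to prey 13271504, minus strand: actgtttcccagctGTtcctcagcgtaggg
Each matched the reference on both sides of the joint.

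The leading AsiSI joint was a microhomology deletion. It occurred in 22 junctions of the 6 AsiSI DMSO libraries and in 118 junctions in all, with at least 1 in all 32 libraries, the 6 Cas9 libraries included. It was seen with 5, 3 or 1 shared bases in 44, 39 and 31 junctions, which lack 29, 27 and 25 bp. Both other AsiSI joints kept the whole far side that AsiSI leaves. AsiSI joint 2 was seen in all 26 AsiSI-MEF libraries (69 junctions) and 1 time among the 6 Cas9 libraries. AsiSI joint 3 was seen in 12 AsiSI libraries, those of runs 1 and 2. Its bait loss exceeds the 15 bp that bounded the other runs.

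The 3 leading Cas9 joints were all motif-keeping, with bait ends 88, 72 and 82 bases past the motif. They were not particular to Cas9. They were found in 6 of 6 Cas9 libraries (57, 39 and 31 junctions) and also in 19, 16 and 15 of the 26 AsiSI-MEF libraries (89, 49 and 33 junctions). In each, all junctions had the same overlap of 3, 3 and 2 nt.

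CK-666 was compared with DMSO to ask whether ARP2/3 activity bears on these joints. In AsiSI-MEFs the near-bait share under CK-666 was 6.29%, 6.91%, 6.14%, 9.69%, 6.21% and 6.98% in replicates 1 to 6, higher than DMSO in 3 pairs and lower in 3. The mean difference was 0.214 percentage points ± 1.38 (SD of 6 pairs, exact sign-flip p = 0.812). It was -0.648 percentage points in run 1 (2 pairs) and 0.644 in run 2 (4 pairs), and -0.298 without replicate 4. Of the other 5 measures, the opposite-strand share differed most, by 9.40 percentage points ± 10.2, higher in 5 of 6 pairs (exact p = 0.0938, adjusted 0.562). This moved with motif-keeping junctions, which made up 24.8% ± 15.2 under CK-666 and 15.6% ± 8.89 under DMSO, and without them the difference was 1.73 percentage points (exact p = 0.312). None of the 6 measures passed the threshold of 0.05 in AsiSI-MEFs, with or without adjustment.

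With Cas9 the near-bait share was lower under CK-666 in 3 of 3 pairs. It was 14.3%, 12.4% and 26.5% against 16.3%, 19.5% and 29.5%, a mean difference of -3.997 percentage points ± 2.70 (SD), with an exact sign-flip p of 0.25, the smallest that 3 pairs can give (adjusted 0.900). The pair differences were -1.95, -7.06 and -2.98 points, against -1.43 to 2.77 points in the 6 AsiSI pairs. The CK-666 effect differed between the baits by -4.21 percentage points (exact permutation of the 6 and 3 pair differences, p = 0.0119, adjusted 0.0714). On the log2 ratio scale, added after the data were seen, that difference was -0.36 (exact p = 0.107). Deletion sizes overlapped, with median missing bases of 31, 34 and 33 bp under CK-666 and 31, 39 and 32 bp under DMSO.

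NU7441 was compared with its DMSO controls because DNA-PKcs acts in the joining of such ends. The near-bait share was 2.11%, 1.88% and 4.36% with NU7441 and 2.70%, 5.44% and 4.37% in controls 1 to 3. It was lower in 3 of 3 pairs, with a mean difference of -1.38 percentage points ± 1.90 (SD), -2.07 points in the 2 pairs of run 6 and -0.0142 points in the pair of run 3 (exact sign-flip p = 0.25, adjusted 0.75). Pair 2 differed most, by -3.56 points, and only 48 and 25 near-bait junctions underlay the treated libraries of run 6. Overlaps were present in 68.8%, 84% and 71.8% with NU7441 against 70.3%, 60.6% and 64.4%, higher in 2 of 3 pairs (difference 9.76 percentage points ± 12.7, exact p = 0.5). Median prey distance was 20.5, 11 and 36 bp with NU7441 against 21, 18 and 136 bp, lower in 3 of 3 pairs. The mean difference was -35.8 bp ± 55.7 (exact sign-flip p = 0.25, adjusted 0.75), with -100 bp in the pair of run 3 and -3.75 bp in run 6. Median missing bases of deletions were 23, 24 and 30 bp against 27, 23 and 32 bp. None of these differences passed the test, and 3 pairs cannot give an exact p below 0.25.

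The 2 remaining treatments had 2 pairs each and were not tested. The near-bait share was 4.78% and 8.87% with wiskostatin against 4.07% and 8.98% in its controls, and 5.14% and 8.03% with actin R62D-NLS against 4.73% and 8.10% with empty vector. In each experiment the 2 replicates, from different runs, differed more than treated and control libraries of the same run. Opposite-strand shares were 34.1% and 56% against 33.2% and 57.1% for wiskostatin and 37.6% and 13.5% against 38.3% and 14.8% for actin R62D-NLS.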

How the data were processed

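Genomic DNA of AsiSI-MEFs or Cas9-transfected MEFs was sheared, copied from a biotinylated bait primer, amplified with a nested primer and sequenced. Per the labels and methods, the authors used the Burrows-Wheeler Aligner with the mm10 genome and kept junctions with the transloc_pipeline at default parameters, with mapping quality above 30 and duplicates removed. The deposited tables hold other values than counts: 1 row per junction with genome positions, strands and positions on the read, without normalization. Depth is the number of rows, 362 to 18428 per library. The 12 Hi-C samples of the series were not analysed here.

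Rows within 1 kb of the break were taken as near-bait junctions. Bait loss is the number of bases between the bait end and position 13271321, negative where the bait runs past it, with the same zero point for both nucleases. Overlaps and insertions come from the bait and prey positions on the read. Reads, strands and motifs were checked against mm10, where 99.99% of 7659 ungapped bait parts matched. Per library, 6 measures were computed: near-bait share, opposite-strand share, median bait loss, median prey distance, overlap share and insertion share.

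Groups were compared over libraries with exact two-sided permutation tests, of labels between nucleases and of the signs of pair differences within treatments, with Benjamini-Hochberg adjustment over the measures. Same-numbered libraries were paired, since the study's source data scale each treated value to the control of its replicate and both shared a sequencing run. As a check, deviations of same-numbered libraries over windows of 1 Mb correlated at 0.692, 0.862 and 0.272 (CK-666, Cas9), 0.859, 0.333 and 0.816 (NU7441) and -0.109 to 0.739 (CK-666, AsiSI), the last not all above 0.1. Between nucleases libraries share only a number and were not paired. Single junctions were named as the 3 combinations of bait end, prey position and strand found in the most libraries, then junctions, for each nuclease under DMSO. Genes were named from Rsu1 and its neighbours within 1 kb.

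Alternatives were other windows, denominators, limits on loss, repeats, scales and left-out libraries. Leaving out motif-keeping junctions, limiting bait loss to 15 bp, both of these with loss counted from each nuclease's own cut, and the log2 scale for the difference between baits were chosen after seeing the data. Members and measures were chosen with earlier results of these data known. Scripts were tested on simulated data. Python 3.11.15, numpy 2.4.6, pandas 2.3.3, scipy 1.17.1 and matplotlib 3.10.9 were used.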

Additional observations from a re-analysis of the deposited data

Results flagged for a closer look

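Among the 12 combinations of a 6-library group and a measure, 2 held a library far from the others by Dixon's test, which flags about 1 in 20 groups by chance. The near-bait share of CK-666 replicate 4 in AsiSI-MEFs was 9.69%, and the other 5 libraries lay between 6.14 and 6.98%. The overlap share of CK-666 replicate 5 was 77.3%, from 66 near-bait junctions, and the other 5 lay between 64 and 68.4%.

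The effect of CK-666 on the near-bait share differed between the baits, by -4.21 percentage points (Cas9 minus AsiSI, exact two-sided permutation p = 0.0119, adjusted 0.0714 over 6 measures). All 3 Cas9 pairs were lower under CK-666, and 3 of 6 AsiSI pairs were. Leaving out single pairs gave -5.23 to -2.68 points, and the adjusted p did not pass the threshold.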

How the results depend on the processing

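Of the values recomputed under alternatives, 599 kept their direction and side of the threshold, or moved by less than the spread, 28 lost their call, 6 gained one, 31 changed sign and 16 untested ones moved by more than the spread. The 599 include log2 ratios of the untested treatments, which were counted there without a check. Comparisons over 3 pairs could not gain or lose a call, so the 599 do not measure robustness. For Cas9 against AsiSI under DMSO, leaving out junctions with summed losses under 30 bp gave -3.11 points of opposite-strand share and 5.55 of insertion share, and the denominator without AsiSI prey gave 0.634 points of near-bait share. Within the Cas9 run, with 1 AsiSI library, the differences were 12.8 points (near-bait), -25.1 (opposite strand), 19.3 bp (bait loss), -35.5 bp (prey distance), -11.5 points (overlap) and 10.8 (insertion). With all 13 AsiSI controls prey distance differed by 42.2 bp and overlap by -5.52 points. Bait loss differed by -5.25 bp without motif-keeping junctions and by -2.83 bp with the shared limit as well, both past the threshold. With loss counted from each nuclease's own cut these were -3.25 bp, past the threshold, and -0.833 bp (exact p = 0.607), and with all junctions -3.58 bp (exact p = 0.226). With the replicate number as a block, which leaves 3 pairs and no exact p below 0.25, the differences were 14.9 points, 68.3 bp, -4.25 points and 10.9 points for near-bait share, prey distance, overlap and insertion. Leaving out single libraries gave 11.1 to 17.7 points, 64 to 71 bp, -5.63 to -3.14 points and 9.25 to 10.6 points for the same measures. Without any 1 of the 3 Cas9 libraries the adjusted p of near-bait share, prey distance and insertion was 0.0536 to 0.0714, and overlap kept its call only without AsiSI replicate 2. Leaving out a Cas9 library allows no exact p below 0.0357. Without the pairing by replicate number, no treatment comparison gained a call.

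For CK-666 in AsiSI-MEFs, where no value passed the threshold, signs turned for insertion with the 10 kb window (0.0394 points) and, without motif-keeping junctions, for near-bait share (-0.478 points), bait loss (0.0833 bp) and prey distance (-1.17 bp). With the shared limit as well these were -0.344 points, 0.75 bp and -2.25 bp. Single libraries left out gave -0.298 to 0.542 points of near-bait share and -2.09 to 1.00 of insertion. In Cas9 cells prey distance was -5 bp without motif-keeping junctions, with or without the limit, -0.046 on the log2 scale and -11.5 to 16 bp without single pairs, and opposite strand was -0.482 to 2.27 points. For NU7441 the opposite-strand share differed by 0.702 points within 500 bp, 17.5 without short losses, 0.26 on the log2 scale and -5.70 to 4.90 without single pairs. Its prey distance was 75.2 bp without short losses, and insertion was -2.06 to 1.00 points without single pairs. The effect of CK-666 differed between baits by 1.08 bp of prey distance in the 10 kb window (-20.7 to 6.83 bp without single pairs) and by -0.583 bp of bait loss with motif-keeping junctions left out and the limit.

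For wiskostatin, untested, opposite strand was 1.51 points within 500 bp, 4.54 without short losses and -3.78 without motif-keeping junctions, with or without the limit. Overlap was 1.58 and -1.41 under the last 2, prey distance -10.8 bp within 500 bp, and near-bait share 2.49 points without AsiSI prey. For actin R62D-NLS, untested, opposite strand was 0.853, -2.20 and -4.59 points under the same 3, bait loss -1 bp with each junction counted 1 time, and near-bait share 0.621 points over chromosome 2 and 4.83 without AsiSI prey. Near-bait against far junctions with AsiSI gave 7.37 points of overlap without short losses and, without motif-keeping junctions, -36.5 points of opposite strand, 10.6 bp of bait loss and -6.57 points of overlap, all 3 past the threshold. In these comparisons motif-keeping junctions were left out near the bait only. With Cas9 insertion was 0.188 points without motif-keeping junctions, with or without the limit, and -8.21 to 6.71 points without single libraries. The causes of these changes were not tested. A log2 ratio could not be formed for median bait losses of 0 or less. With 25 to 1030 near-bait junctions per library and 2 to 6 libraries per group, small differences were not detectable.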
